A study of Mus musculus with 4 samples.

Results

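The 10 genes described here, among them Defa21, Defa22, Defa23, Defa26, Defa33, Gm14851, Gm15292, Gm7861 and AY761184, are alpha-defensins of Paneth cells. They were chosen because earlier results from these same libraries placed them high in fl/fl and low in knockout Paneth cells, so their difference between genotypes is given as a description, with no test. All 10 were found among the 27998 genes of the deposited count tables. The tables hold 28 alpha-defensin genes in all, which leaves 18 others for comparison. Defa33 is spelled Gm21002 in the tables and was matched by gene ID.

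Single cells were profiled from enriched small intestinal crypts of 8-week-old mice, after a sort for live epithelial cells (EpCAM positive, CD45 negative), with the 10x Genomics 3′ kit. A pair of libraries carried the label Slc7a5 fl/fl, mice with a floxed Slc7a5 and no Cre. The other pair carried the label Slc7a5 IEC-KO, mice with the same floxed alleles and a Cre driven by the villin promoter, which acts in the whole intestinal epithelium and not in Paneth cells alone. The labels name 4 mice and do not say how these were divided among the libraries, so the spread given here is that between libraries (n = 2 per genotype).

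Alpha-defensins, called cryptdins in the mouse, are small cationic peptides held together by disulphide bonds. Paneth cells at the base of the crypt make them as inactive precursors, store them in granules and release them into the lumen, where they kill bacteria. In the mouse the protease Mmp7 cuts the precursor to its active form. A second class, the cryptdin-related sequences (CRS), shares the front of the precursor with the cryptdins but has a different mature peptide, rich in cysteine.

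A cell was called defensin-rich when symbols starting with Defa (22 genes) took 30% or more of its unique molecular identifiers (UMIs, each 1 captured transcript), and a background cell when they took under 20%. The 26498 cells held 10061 defensin-rich and 14551 background cells. Defensin-rich cells numbered 2102 and 2007 in the fl/fl libraries and 2830 and 3122 in the IEC-KO libraries. They made up 57.9% and 62.4% of all cells in fl/fl and 28.3% and 32.4% in IEC-KO. Cells between 20% and 30%, in neither set, made up 2.26% and 2.58% in fl/fl and 9.08% and 8.43% in IEC-KO. Some members are part of the Defa sum, so these shares partly follow from the rule. Cells with 15% or more of UMIs from Defa symbols that are not members made up 60.9% and 65.9% against 40.8% and 44.7%. Defa24 is both a Paneth marker and part of the Defa sum, so it says nothing of the cells' identity. The 6 other Paneth markers (Lyz1, Mmp7, Ang4, Mptx2, Itln1 and Clps) were all detected in every library and took 5.65% to 8.08% of UMIs in defensin-rich cells and 2.01% to 2.05% in background cells. In the defensin-rich cells the 7 goblet markers took 1.79% to 2.33% of UMIs and the 8 absorptive ones 0.0780% to 0.140%. In background cells they took 8.54% to 8.79% and 0.287% to 0.582%. The 6 enteroendocrine markers took 0.0488% and 0.0509% in fl/fl defensin-rich cells, above the 0.0380% and 0.0376% of fl/fl background cells. In IEC-KO they took 0.0615% and 0.0641%, below the 0.136% and 0.120% of background cells. The immune marker Cd3e had no UMI in the defensin-rich cells, and Cd79a had none in 3 of the 4 libraries. Cd3e had none in fl/fl background cells either. The immune markers Ptprc and Lyz2 were detected in the defensin-rich cells of every library. The 4 immune markers together took 0.00125% to 0.00367% of UMIs there, above the 0.000460% to 0.000614% of background cells. Lyz2 is also counted below among the antimicrobial granule proteins, so this sum does not stand for immune cells alone.

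The libraries held between 87922473 and 127094508 UMIs. The median defensin-rich cell had 45862 and 52128 UMIs in fl/fl but 12548.5 and 18370 in IEC-KO, and the lowest total of any cell ran from 3843 to 9670 UMIs over the libraries. Values per cell were therefore taken after each cell was thinned to 2000 UMIs, unless given as shares of all UMIs. Depth cannot be told apart from genotype here. With only cells of at least 9670 UMIs in every library, the members' median log2 ratio (given below as −1.62) was −1.55. At most 132 cell barcodes were shared by any pair of libraries. Slc7a5 itself had 140 and 128 UMIs in the fl/fl and 350 and 615 in the IEC-KO libraries. The 3′ tags lie outside the deleted exon and check nothing, so every direction below rests on the labels.

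All 28 genes lie in 1 cluster on chromosome 8 of GRCm38 (GENCODE M21), from 21025545 to 21735471, a stretch of 710 kb, and each annotated transcript has 2 exons. Slc7a5 lies on the same chromosome, at 121881150 to 121907694, 100.1 Mb further on. Of the members, Defa21 (21025545 to 21026516), Defa23 (21055047 to 21056016), Defa22 (21162277 to 21163249), Gm15292 (21249754 to 21250556), Defa33 (21391811 to 21392791) and Defa26 (21618183 to 21618972) are on the plus strand. Gm14851 (21095074 to 21096050), Gm7861 (21593375 to 21594508) and AY761184 (21702519 to 21703645) are on the minus strand. Members and other alpha-defensins were interspersed along the cluster.

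Gm7849, which is not a member, also lies on the minus strand. RefSeq lists the CRS name CRS1C-2 among the synonyms of Gm14851 (there called Defa38). The coding sequences of Gm14851, Gm7861, AY761184 and Gm7849 are 348 bases long and at least 96.0% identical to each other, whereas the 23 plus-strand genes have 198 to 285 coding bases and match the minus-strand genes at no more than 66.1%.

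Several members have a near-identical copy, among the members or the other alpha-defensins. The bases that tell copies apart decide to which gene a read is counted. The last coding exons of 2 pairs of members are shown as examples, with differing bases in capitals. They run 5′ to 3′ on the gene's strand and come from the GENCODE M21 transcripts. Bases outside these exons also tell the copies apart. The stop codon is not included. Defa21 lies at chr8:21026314-21026420 and Defa22 at chr8:21163046-21163152, both on the plus strand, and 106 of 107 bases were identical.
Defa21: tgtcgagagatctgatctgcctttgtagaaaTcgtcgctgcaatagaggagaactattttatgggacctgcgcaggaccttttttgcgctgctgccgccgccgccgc
Defa22: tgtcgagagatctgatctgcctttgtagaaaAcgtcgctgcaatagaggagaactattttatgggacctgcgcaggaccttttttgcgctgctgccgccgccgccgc

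Defa26 (chr8:21618773-21618879, plus strand) and Gm15292 (chr8:21250352-21250458, plus strand) also differed at 1 of 107 bases. Their whole coding sequences were 97.8% identical.
Defa26: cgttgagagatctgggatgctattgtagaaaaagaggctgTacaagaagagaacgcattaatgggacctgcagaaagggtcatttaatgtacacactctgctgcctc
Gm15292: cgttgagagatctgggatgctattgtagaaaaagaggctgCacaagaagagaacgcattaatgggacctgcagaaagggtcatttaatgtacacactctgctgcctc

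Reads of the 3′ kit come from the end of the transcript. Each annotated transcript's last 400 bases, or all of it where shorter, were therefore cut into stretches of 90 bases. These were compared with those of the other alpha-defensins. Every stretch of AY761184 was its own. Gm15292 had 95.6% and Defa26 95.4% of stretches to themselves, sharing the rest with each other, and Gm14851 had 78.6%. Gm15292, Defa26 and Gm14851 had 296, 283 and 262 stretches, against 311 from a full 400 bases. The annotated transcript of Gm14851 holds little beyond its 348 coding bases, so its share mostly covers coding sequence. Defa21 and Defa22 had 57.9% and 58.2%. The other members were harder to tell apart. Defa23 had only 7.40% of stretches of its own, sharing with Defa30 and Defa31, and Gm7861 had 5.79%, sharing with Gm7849. Defa33 had none, since all were shared with Defa2, Defa20 and Defa32. The counts of these 3 genes are uncertain for that reason.

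Promoters (250 bases before to 50 after the start, RefSeq, GRCm38.p6) were matched for 5 members. One is shown from each strand, because Defa21 and Gm14851 had close to the same ratio between genotypes and different promoters. The promoter of Defa21 lies at chr8:21025295-21025594 (plus strand), and that of Defa22 (chr8:21162027-21162326, plus strand) was identical to it in all 300 bases. The promoter of Gm14851 lies at chr8:21096001-21096300 (minus strand). Capitals mark ATCAAAG (either strand), the core that TCF/LEF factors of the Wnt pathway are known to bind, and TATAAA (either strand), the TATA box.
Defa21 promoter: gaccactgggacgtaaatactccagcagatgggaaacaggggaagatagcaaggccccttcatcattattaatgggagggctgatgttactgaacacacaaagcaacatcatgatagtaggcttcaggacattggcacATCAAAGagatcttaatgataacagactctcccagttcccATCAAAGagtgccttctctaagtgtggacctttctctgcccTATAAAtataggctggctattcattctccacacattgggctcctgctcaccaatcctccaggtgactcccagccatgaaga
Gm14851 promoter: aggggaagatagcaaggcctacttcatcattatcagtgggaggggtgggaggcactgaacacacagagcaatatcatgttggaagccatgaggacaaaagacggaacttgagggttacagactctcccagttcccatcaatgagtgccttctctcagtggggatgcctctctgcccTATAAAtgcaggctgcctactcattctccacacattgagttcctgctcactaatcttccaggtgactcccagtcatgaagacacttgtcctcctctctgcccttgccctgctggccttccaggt

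TATAAA was present in all 5 member promoters and in 15 of the 16 alpha-defensin promoters matched, against 13.6% of the 32851 promoters in the table. ATCAAAG was present in 13 of the 16, against 3.73% of all promoters. It occurred 2 times in each of Defa21, Defa22 and Defa23, and was not found in these letters in Gm14851 or Gm7861. The same was seen in promoters of alpha-defensins that are not members, where Defa20 and Defa32 also held 2 copies and Gm7849 held none. Further pairs of promoters were identical in all 300 bases, such as Defa23 and Defa31 or Gm7861 and Gm7849. The 16 promoters are therefore not independent cases.

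In defensin-rich cells the 10 members together took 26.5% of UMIs in each fl/fl library, and 9.22% and 8.59% in the IEC-KO libraries. The means were 26.5% ± 0.00807 (SD, n = 2) and 8.91% ± 0.446 (SD, n = 2), a log2 ratio of the shares of −1.57. The libraries did not overlap, and the members were chosen on this contrast. The 18 other alpha-defensins took 41.8% and 44.2% of UMIs in fl/fl and 42.1% and 43.6% in IEC-KO. Their summed share was level between the genotypes (log2 ratio −0.0049), below the median of 0.69 over all genes on the same scale. Defa24 and Defa30, the most abundant of them, are in the Defa sum that chose the cells, so this level is partly fixed by the rule. Members made up 38.8% and 37.5% of alpha-defensin UMIs in fl/fl and 18.0% and 16.5% in IEC-KO.

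**Figure D1:**
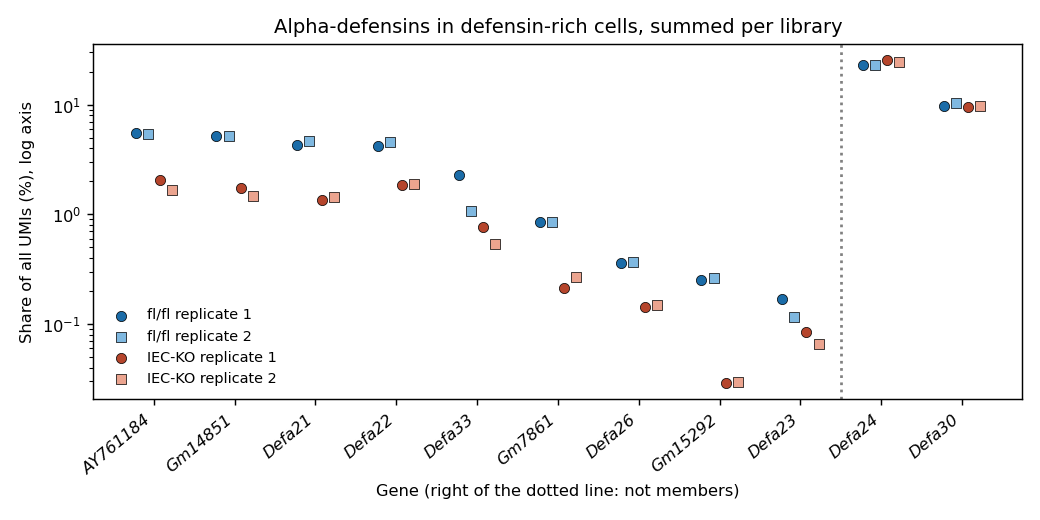
Share of all UMIs (%, log axis) of 9 members in the defensin-rich cells of the 4 libraries (points, 1 per library), with Defa24 and Defa30 to the right of the dotted line as the most abundant alpha-defensins that are not members. Both IEC-KO libraries lie below both fl/fl libraries for each member shown, and Defa24 lies at 22.8% to 25.5% in all libraries.

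Each of the 10 members was lower in both IEC-KO libraries than in both fl/fl libraries. By share of UMIs, 5.95% of the 12696 genes tested in these cells had that order, and after TMM scaling (which sets the typical gene to no change) 35.8% had it. The rule used this contrast, so nothing is read from the count. The median log2 ratio of the members was −1.62 by share, and −2.31 after TMM scaling.

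The minus-strand members were among the most abundant transcripts of the cell. AY761184 took 5.46% and 5.43% of UMIs in fl/fl and 2.08% and 1.66% in IEC-KO. Gm14851 took 5.18% and 5.14% against 1.73% and 1.47%. For both genes the IEC-KO libraries lay below the fl/fl libraries by more than the gap between replicates. Both were chosen on this contrast, so nothing is read from the size of the gap. Gm7861, less abundant, took 0.848% and 0.850% against 0.212% and 0.266%. The log2 ratios were −1.54 for AY761184 (standard error 0.16), −1.69 for Gm14851 (0.12) and −1.83 for Gm7861 (0.16). Gm7849, the only minus-strand gene that is not a member, lay at −1.56, but none of its stretches is its own, since all are shared with Gm7861, so its ratio is uncertain.

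The plus-strand members varied more. Defa21 took 4.30% and 4.65% of UMIs in fl/fl against 1.35% and 1.43% in IEC-KO (log2 ratio −1.69, standard error 0.07). Its close copy Defa22 took 4.22% and 4.61% against 1.84% and 1.90% (−1.24, standard error 0.07). The copies stood level in fl/fl, and Defa22 stood above Defa21 in both IEC-KO libraries.

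Gm15292 had the lowest ratio of the family. It took 0.253% and 0.265% of UMIs in fl/fl and 0.0289% and 0.0297% in IEC-KO, a log2 ratio of −3.14 (standard error 0.04) that left 11.3% of the fl/fl level. Defa26, which differs from it at 1 base of the last coding exon, took 0.357% and 0.365% against 0.141% and 0.149% (−1.32, standard error 0.04). Defa26 stood above Gm15292 in both genotypes.

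The 3 members whose reads are shared with other copies need more care. Defa23 took 0.171% and 0.116% of UMIs in fl/fl against 0.0843% and 0.0653% in IEC-KO (−0.94, standard error 0.33), and Defa33 took 2.30% and 1.06% against 0.766% and 0.535% (−1.37, standard error 0.61). Replicate 1 stood above replicate 2 in both genotypes for both genes. For Defa20 the replicates ran the other way, 4.17% and 5.34% in fl/fl and 3.00% and 3.91% in IEC-KO, and Defa32 followed it. Summed over Defa33, Defa2, Defa20 and Defa32, which share their ends, the fl/fl libraries lay at 8.28% and 8.68% and the IEC-KO libraries at 5.08% and 6.24%, a log2 ratio of −0.58. Summed over Defa23, Defa30 and Defa31 the ratio was −0.08, as Defa30 alone took 10.1% of fl/fl UMIs. The ratios of Defa33 and Defa23 therefore hold for the counts as assigned to those genes, not for their sequence groups. The sum of Gm7861 and Gm7849 stayed at −1.82, and that of Defa21 and Defa22 at −1.45.

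**Figure D2:**
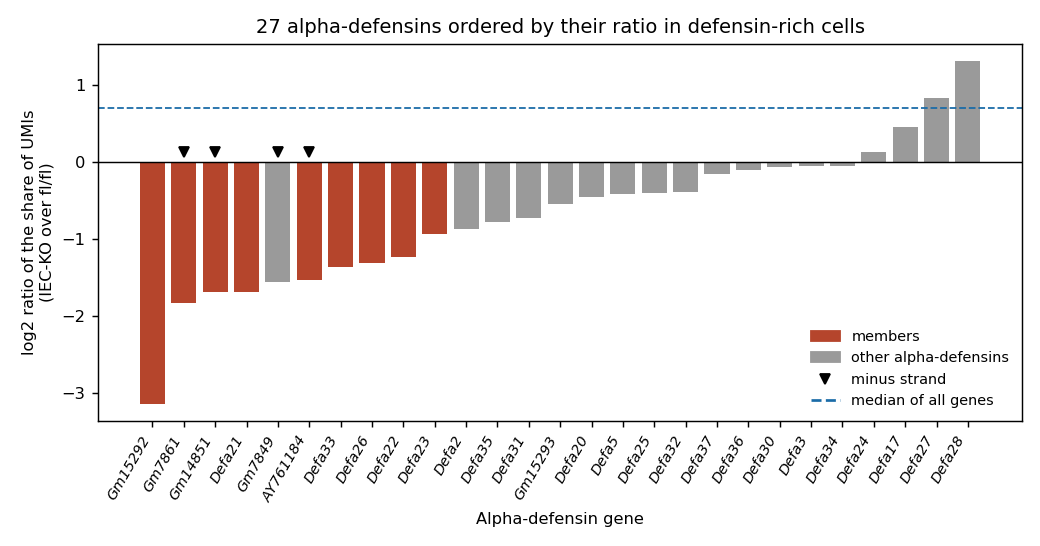
log2 ratio of the share of UMIs (IEC-KO over fl/fl, means of 2 libraries) in defensin-rich cells for 27 alpha-defensins, ordered from lowest to highest. Members (red) run from −3.14 to −0.94, the minus-strand genes (triangles) lie between −1.83 and −1.54, the bar of Defa2 rests on at most 6 UMIs per library, and the dashed line is the median of all genes at 0.69.

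The other 18 alpha-defensins had a median log2 ratio of −0.27, with 14 below 0 and 4 above. Defa2, one of the lowest, had only 6 and 4 UMIs in fl/fl and 1 and 2 in IEC-KO, too few for a ratio. The lowest of the rest were Gm7849 (−1.56), Defa35 (−0.79) and Defa31 (−0.73), and the highest were Defa28 (1.31), Defa27 (0.83) and Defa17 (0.45). Defa31 had no stretch of its own, with 178 and 182 UMIs in fl/fl and 41 and 76 in IEC-KO. Defa17 had only 9.09% of stretches of its own. The ratios of Defa31 and Defa17 are uncertain for that reason. Defa24, the most abundant, took 22.8% and 23.2% of UMIs in fl/fl and 25.5% and 24.5% in IEC-KO. Members and others were divided by the rule, so no test was made between them. At the border of the list, Defa23 (−0.94) lay just inside, Defa35 just outside, and Gm7849 was left out despite its ratio.

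At the border of the cell rule, cells with 30% to 35% Defa UMIs held 4.27% and 3.49% AY761184 in fl/fl and 2.15% and 1.47% in IEC-KO, and cells with 25% to 30% held 3.28% and 2.34% against 1.61% and 1.37%. Members whose symbols start with Defa take part in the sum that sets the rule, whereas AY761184, Gm14851, Gm15292 and Gm7861 do not. When cells were instead chosen by Defa symbols that are not members (15% of UMIs or more), the median log2 ratio was −1.76. In cells matched at 40% to 50% Defa UMIs it was −1.38, with members at 21.3% and 19.6% of UMIs in fl/fl and 8.27% and 6.93% in IEC-KO. These cells were matched on the Defa sum, not on all alpha-defensins. Members took a larger share of alpha-defensin UMIs as the Defa content rose above 30% in every library. In fl/fl the members' share went from 30.7% and 27.3% at 30% to 40% Defa UMIs to 40.6% and 38.1% at 60% or more. In IEC-KO it went from 14.3% and 12.4% to 21.8% and 21.0%.

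Single cells showed how the difference was spread. After thinning, the summed members took a median of 26.2% and 26.6% of UMIs per cell in fl/fl, and 7.50% and 6.80% in IEC-KO. A level at or above 15.5%, the 5th percentile of the fl/fl cells (mean of 2 libraries), was reached by 95.5% and 94.7% of fl/fl cells but by 6.36% and 3.97% of IEC-KO cells. Most IEC-KO cells thus lay below nearly all fl/fl cells. Within the alpha-defensin UMIs of a cell, the members' median share was 38.0% and 37.1% in fl/fl and 15.5% and 14.0% in IEC-KO. Defa24, taken the same way, did not show such a gap, with 95.3% and 94.2% of IEC-KO cells at or above the 5th percentile of fl/fl. Defa24 is the largest part of the Defa sum that chose the cells. Its share in them is therefore partly fixed by that rule and sets no contrast with the members.

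**Figure D3:**
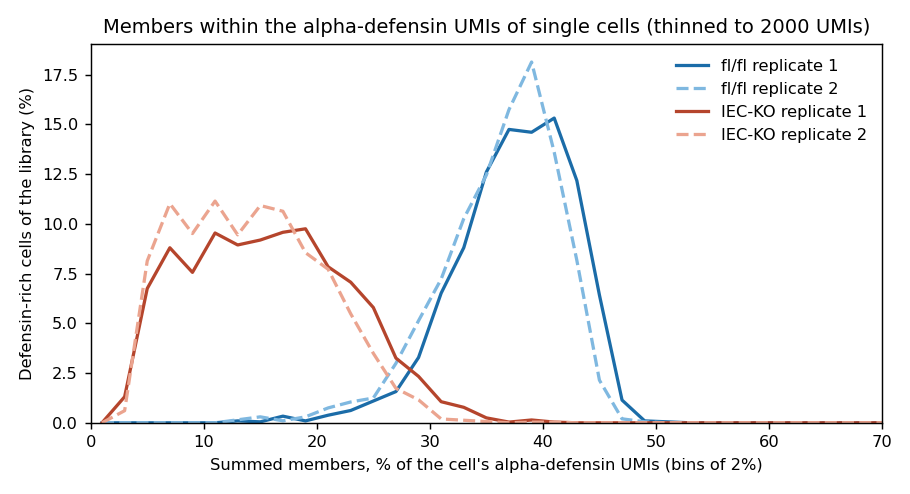
Share of defensin-rich cells (%, y axis) by the members' share of the cell's alpha-defensin UMIs (x axis, bins of 2%), 1 line per library, each cell thinned to 2000 UMIs. The fl/fl libraries peak near their medians of 38.0% and 37.1%, and the IEC-KO libraries are broad around 15.5% and 14.0%.

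Member by member, the IEC-KO cells were not lowered by an even step. For each gene, the level that about 9 in 10 fl/fl cells reach (the 10th percentile, mean of both libraries) was taken as the fl/fl level. For Defa21 it was reached by 25.2% and 24.8% of IEC-KO cells, for Defa22 by 36.7% and 35.6%, for Gm14851 by 24.6% and 19.9%, and for AY761184 by 21.6% and 15.3%. Without thinning, the 90th percentile of Gm14851 in IEC-KO cells was 4.35% and 3.58% of UMIs and its median 0.602% and 0.582%, against fl/fl medians of 5.03% and 4.96%. For these 4 genes a minority of IEC-KO cells reached the 10th percentile of fl/fl. After thinning, the fl/fl median was reached by 5.09% and 4.87% of IEC-KO cells for Defa21 and by 11.6% and 10.5% for Defa22. It was reached by 6.78% and 3.56% for Gm14851 and by 6.57% and 2.53% for AY761184. Defa26 reached its 10th percentile level in 49.5% and 49.1% of IEC-KO cells. Defa33 reached its own in 39.4% and 25.3%, but the fl/fl libraries were uneven, with 98.3% and 70.9% of cells at or above it. Defa23 reached its level in 73.0% and 65.0% of IEC-KO cells, where the level, 0.5 UMIs, is met by a single UMI.

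Gm15292 and Gm7861 were reached in the fewest cells, 9.58% and 8.94% for Gm15292 and 10.2% and 13.9% for Gm7861. Gm15292 had a UMI in 97.8% and 97.5% of fl/fl defensin-rich cells thinned to 2000 UMIs and in 33.3% of those of either IEC-KO library. In background cells thinned alike, it had one in 43.3% and 46.9% (fl/fl) and 4.76% and 6.67% (IEC-KO). The IEC-KO share in defensin-rich cells was above that of the background cells of the same libraries.

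Few IEC-KO cells held many members at the fl/fl level at once. At least 9 of the 10 members reached it in 81.2% and 74.1% of fl/fl cells and in 0.318% and 0.128% of IEC-KO cells. A median of 3 members reached it in each IEC-KO library, against 10 and 9 in fl/fl, with 6.25% and 8.87% of cells at none. Some members were high in the same cells. Of the IEC-KO cells high in Defa21, 89.3% and 90.8% were high in Defa22, against 36.7% and 35.6% of all IEC-KO cells. Of those high in Gm14851, 39.2% and 39.1% were high in Defa21, against 25.2% and 24.8% of all.

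Other members were rarely high together. Of the IEC-KO cells high in AY761184, 11.6% and 10.7% were high in Defa21, against 25.2% and 24.8% of all IEC-KO cells. Of those high in Gm14851, 10.8% and 6.76% were high in AY761184, against 21.6% and 15.3% of all, although both are minus-strand genes. Those high in AY761184 were high in Gm7861 in 29.7% and 47.2%, against 10.2% and 13.9% of all. In the IEC-KO libraries the cells with Gm14851 at fl/fl levels were therefore mostly not those with AY761184 at that level. Defa21 shares stretches with Defa22, as given above, and the part of reads assigned to the wrong copy was not tested.

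Correlations between members across the cells of a library were also computed. They are Pearson's r of log(1 + UMIs) over 2007 to 3122 defensin-rich cells thinned to 2000 UMIs, and cells of a library share their preparation and free RNA, so r is a description. Defa21 and Defa22 had r of 0.93 and 0.92 in fl/fl and 0.81 and 0.83 in IEC-KO. Defa22 and Defa33 had 0.82 and 0.76 against 0.70 and 0.69. Both pairs stood well above the typical pair, since the median over the 45 pairs was 0.14, 0.15, 0.16 and 0.12 in the 4 libraries.

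Some pairs differed between the genotypes. Defa21 and AY761184 had r of −0.55 and −0.51 in fl/fl and −0.13 in both IEC-KO libraries. Defa21 and Gm14851 had 0.02 and 0.07 in fl/fl and 0.39 and 0.37 in IEC-KO, while Gm14851 and AY761184 went from 0.38 and 0.42 to 0.06 and 0.12. The libraries of a genotype lay close to each other in each case, and the differences were not tested. The values depend on the total used. Within alpha-defensin UMIs, Defa21 and AY761184 had −0.70 in both fl/fl libraries and −0.31 and −0.33 in IEC-KO. Defa21 and Gm14851 had −0.24 and −0.20 against 0.25 and 0.21. Gm14851 and AY761184 had 0.24 and 0.28 against −0.10 and −0.040.

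**Figure D4:**
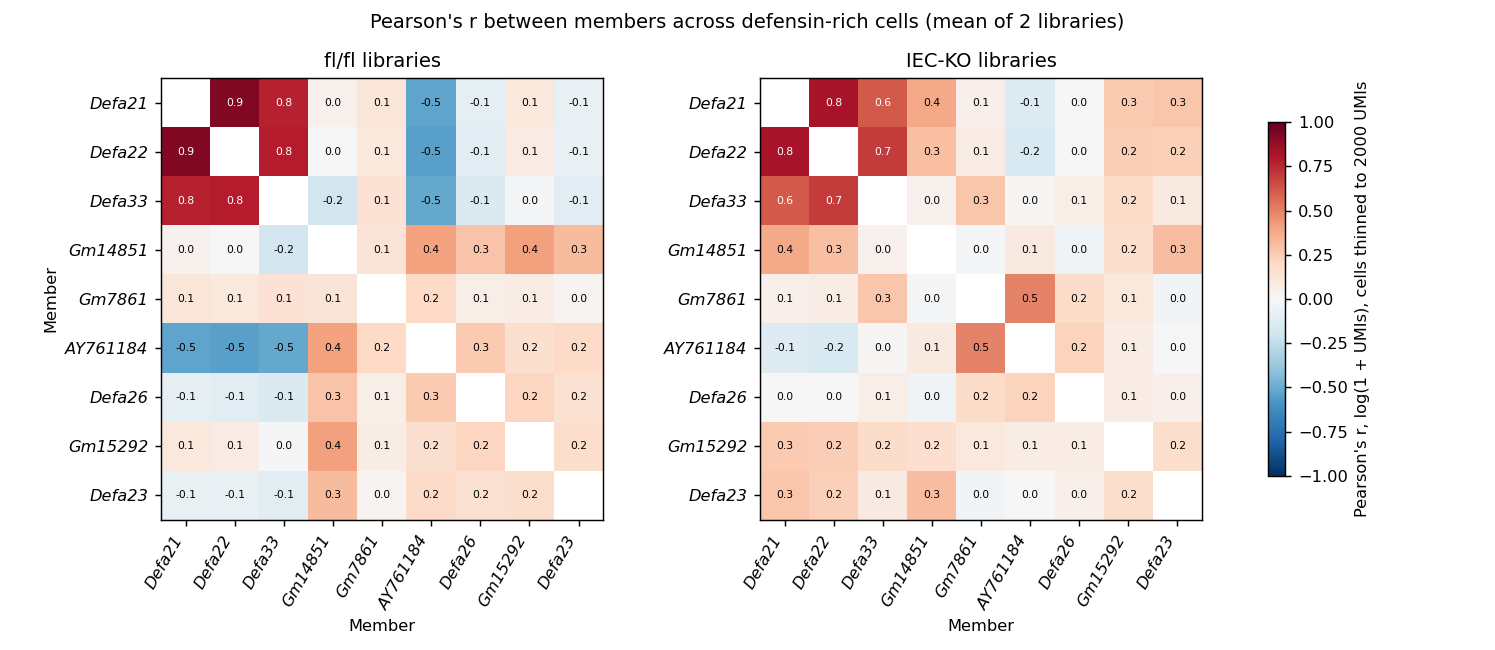
Pearson's r between 9 members across defensin-rich cells thinned to 2000 UMIs, mean of the 2 fl/fl libraries (left) and of the 2 IEC-KO libraries (right), with r printed in each field. Defa21, Defa22 and Defa33 form a block in both, and the values between this block and AY761184 are negative in fl/fl and closer to 0 in IEC-KO.

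Among 548 genes with a UMI in at least 10% of thinned defensin-rich cells in every library, those most like the summed members were largely other alpha-defensins, by mean r over the 4 libraries. Defa30 (0.46), Gm15293 (0.46), Defa37 (0.44), Defa5 (0.43), Defa20 (0.41) and Defa32 (0.36) came first, followed by Ang4 (0.30), an antimicrobial ribonuclease of the granules, Defa35 (0.29), Defa3 (0.22) and Mptx2 (0.20), a pentraxin. Lowest were Spink4 (−0.58), Rpl41 (−0.44), Tff3 (−0.37) and Reg4 (−0.36). Every thinned cell has the same total, so high members leave fewer UMIs for other genes, and no other total was tried here. Over the libraries r ran from −0.76 to −0.39 for Spink4, −0.57 to −0.16 for Tff3 and 0.017 to 0.44 for Defa3. Spink4, Tff3 and Reg4 are secreted proteins also made by goblet cells, and Rpl41 is a ribosomal protein.

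Background cells held members too. In cells under 20% Defa UMIs the members took 2.84% and 3.00% of UMIs in fl/fl and 0.967% and 1.12% in IEC-KO, a log2 ratio of −1.49. All 10 members were lower in both IEC-KO libraries, in an order that 49.2% of the 12323 genes of these cells showed. The level in defensin-rich cells was 4.55 to 15.5 times that in background cells over all members and libraries. It was lowest for AY761184 and Gm7861 in IEC-KO, and highest for Defa33.

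Grouped by the marker list that led them (goblet, absorptive, cycling, tuft or enteroendocrine), background cells had a like level of members whatever the group, 2.63% to 3.13% of UMIs in fl/fl and 0.892% to 1.14% in IEC-KO, apart from 1.55% and 1.66% in cells led by enteroendocrine markers in IEC-KO. Fl/fl had too few of the latter (18 and 6 cells) for a value. Of the IEC-KO cells led by enteroendocrine markers, 202 of 375 and 249 of 387 lay near the border to another list (lead under 1.5 times the next). The groups are ranges of a marker score, not cell types. Members made up 34.2% and 33.4% of alpha-defensin UMIs in background cells of fl/fl and 14.5% and 14.6% in those of IEC-KO, near what they made up in the defensin-rich cells of the same library. Gm15292 was 0.338% and 0.328% of alpha-defensin UMIs in fl/fl background cells and 0.0391% and 0.0458% in IEC-KO. Such UMIs can come from free RNA. The part of free RNA in the defensin-rich cells was not tested, and their shares were not corrected for it.

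**Figure D5:**
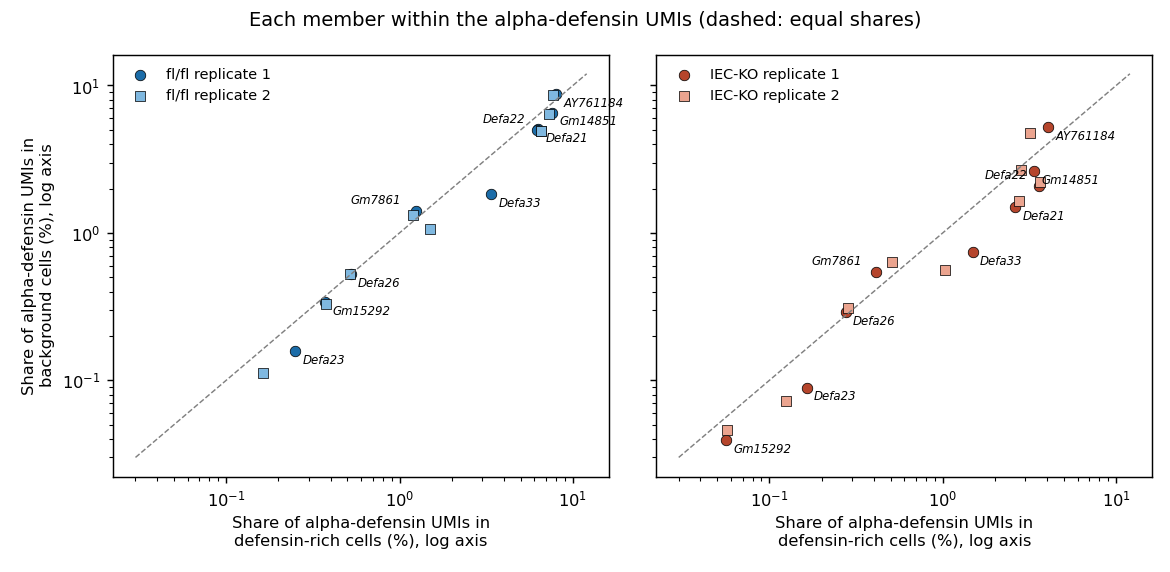
Share of alpha-defensin UMIs (%) of 9 members in defensin-rich cells (x, log axis) and background cells (y, log axis) of the fl/fl (left) and IEC-KO libraries (right), 1 point per member and library, with equal shares dashed. In both genotypes AY761184 and Gm7861 lie above the dashed line, and Defa21, Defa22, Defa23, Defa33, Gm14851 and Gm15292 lie below it. Defa26 lies close to it in fl/fl and above it in IEC-KO.

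The genes that share the granule and the secretory route with the members were taken from a list of 39, none of them a member. edgeR's quasi-likelihood test was run on UMIs summed per library over defensin-rich cells, with Benjamini-Hochberg adjustment over all 12696 genes tested. Of the list, 35 were tested, and 13 were higher and 11 lower in IEC-KO, where 21.2% and 21.0% of all genes were called in these directions (42.1% in all). The share called among all genes is so high that the list's count alone says little, and several of its genes were named by the study from these cells. The values below are log2 fold changes after TMM scaling, with standard errors and adjusted p from edgeR. Without TMM, with library size only, the list had 26 higher and 7 lower, and genes that change direction under it are named beside their values. Under it all 11 genes that did not pass with TMM were called higher, as were Vamp8 and Bhlha15.

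Antimicrobial granule proteins fell in 5 of 9 tested. The lysozyme Lyz1 had 44194 and 43196 CPM (counts over the TMM-scaled library total, so not a share of UMIs) in fl/fl and 14706 and 11021 in IEC-KO. Its change was −1.76 with a standard error of 0.18 (edgeR, adjusted p = 7.35e-07), and −1.07 with library size only. Lyz2 (−1.91), Ang4 (−1.82), Mptx2 (−1.74) and the lectin Reg3a (−1.51) fell as well, with an adjusted p of at most 6.14e-08. Mptx1, with 827 and 906 UMIs in fl/fl and 1174 and 1570 in the shallower IEC-KO cells, rose (0.91, adjusted p = 8.35e-07). Reg3b (−0.02), Reg3g (0.11) and the lectin Itln1 (−0.15) did not pass the test, and Reg3b and Itln1 lay above 0 with library size only. On this TMM scale the median was −1.51 over the 9 genes and −2.31 over the members. The members were chosen for being low in knockout Paneth cells, so nothing is read from the gap between these medians.

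Of the genes for activation and protease control, Mmp7, the protease that cuts cryptdin precursors, was slightly higher in IEC-KO (0.34, standard error 0.11, adjusted p = 0.0206). This call was lost at a threshold of 20% (adjusted p = 0.0588), in cells chosen by other Defa symbols (0.102), in thinned cells (0.120), and without fl/fl replicate 1 (0.104) or 2 (0.190). The trypsin inhibitor Spink1 was lower (−1.497, adjusted p = 1.38e-08), and Spink4 (−0.07, adjusted p = 0.745) did not pass and turned positive with library size only. The trypsinogen Try5 had 3 and 2 UMIs in fl/fl defensin-rich cells and 2846 and 3491 in IEC-KO, and passed the test as higher. Try4 had 0 UMIs in fl/fl and 10 and 4 in IEC-KO, too few to be tested.

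Genes of disulphide formation and folding in the endoplasmic reticulum were mixed. The oxidase Ero1l rose (1.87, adjusted p = 1.66e-12) and its relative Ero1lb fell (−1.14, adjusted p = 1.23e-07). Pdia4 (0.46), Hspa5 (0.19) and Hsp90b1 (0.20) rose, while P4hb (−0.01), Pdia3 (−0.15), Pdia6 (0.09) and Agr2 (−0.09) did not pass the test. P4hb, Pdia3 and Agr2 lay above 0 with library size only. The calls of Hspa5 and Hsp90b1 were lost without fl/fl replicate 1 (adjusted p = 0.233 and 0.102) or 2 (0.268 and 0.339) and in thinned cells (0.167 and 0.918), where that of Pdia4 was lost too (0.286). That of Hspa5 was also lost at a threshold of 20% (0.0568) and in cells chosen by other Defa symbols (0.0796), and that of Hsp90b1 at a threshold of 40% (0.0517).

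Among genes of sensing and release, the potassium channel Kcnn4 (−0.66, adjusted p = 1.51e-05) and the granule fusion protein Vamp8 (−0.36, adjusted p = 0.00051) fell. Both turned positive with library size only, where Vamp8 was called higher (adjusted p = 0.00040) and Kcnn4 was not called (0.780). Ripk2 (0.42) and Atg16l1 (0.16) did not pass. Nod2 and Lrrk2 had too few UMIs to be tested, and Pla2g2a was not analysed here. Transcription factors and receptors of Paneth cells rose in 6 of 9: Atoh1 (0.61), Spdef (0.58), Xbp1 (0.57), Ephb3 (0.56), Sox9 (0.56) and Gfi1 (0.33). Bhlha15 (−0.44) and the Wnt receptor Fzd5 (−0.63) fell, both turning positive with library size only. Bhlha15 was then called higher (adjusted p = 0.0114) and Fzd5 was not called (0.637). Tcf7l2, a TCF factor, did not pass (0.09). The call of Gfi1 was lost with DESeq2 (adjusted p = 0.245), in thinned cells (0.536), and without fl/fl replicate 1 (0.0735), fl/fl replicate 2 (0.114) or IEC-KO replicate 2 (0.445, log2 0.17). Those of Ephb3, Bhlha15 and Fzd5 were lost in thinned cells (0.0827, 0.113 and 0.354).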

How the data were processed

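The study's authors deposited a 10x count matrix for each of 4 libraries, whose values are UMI counts per gene and cell, not normalized. The submitters' processing notes name Cell Ranger 2.1.1 and mm10. A later Cell Ranger is named in the study's methods, so the version that made the files is not certain. All cells in the matrices were used, no doublet caller was run, and leaving out the 5% of cells with most UMIs was an alternative. No column was left unmapped (0).

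Symbols were updated by gene ID to GENCODE M21 (27645 of 27998 genes). The 10 members and all gene lists were chosen with earlier results of these data known. The text names the members, every gene of the secretion list, the other alpha-defensins at both ends of the ratio, and the 10 genes most and 5 least like the members. Defa31 was named after its values were seen, in place of Defa2. Single values of 1 member and of 1 of the least like genes are not reported here, and sums and counts over the members include all 10.

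Shares are UMIs of a gene over all UMIs of the cells, summed per library. Standard errors of log2 ratios come from the spread between the 2 libraries of each genotype. UMIs summed over defensin-rich cells were tested with edgeR 4.0.16 (quasi-likelihood test, TMM, genes with low counts filtered, adjusted p threshold 0.05) in R 4.3.3, with no block. The test was checked on simulated counts in which a small set of genes was changed, evenly up and down. Far more genes were called in the real data, so that check does not cover the TMM scaling there. DESeq2 1.42.0, other thresholds, scalings and cell sets were alternatives. The labels do not say which mice each library holds, so p-values measure only the spread between these libraries, which may be technical. Python 3.11.15 with numpy 2.4.6, scipy 1.17.1 and pandas 2.3.3 was used for the rest.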

Additional observations from a re-analysis of the deposited data

How the results depend on the processing

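All 10 members stayed below 0 in log2 ratio under the 18 alternatives tried. The rule used this contrast, so nothing is read from the sign. Of 180 values for single members, 107 stayed within the spread between libraries around the main ratio and 73 moved beyond it. The members' median, −1.62 by share of UMIs, was −2.28 with UMIs outside alpha-defensins as the total and −1.19 with alpha-defensin UMIs as the total. It was −2.31 in TMM-scaled CPM and −2.43 by the median over cells. Leaving out 1 library gave −1.66 to −1.48, and a threshold of 50% gave −1.28. Cells chosen by Lyz1 gave −1.70, but that rule took 3620 of 3633 and 3217 of 3217 fl/fl cells. Chosen after seeing the data, symbols as spelled in the files gave −1.49 and cells matched at 40% to 50% gave −1.38. The summed members in background cells, −1.49, had −1.65 in cells under 10% Defa UMIs. Within alpha-defensin UMIs the summed members had −0.98 at a threshold of 50% (−1.15 at 30%) and −1.09 in background cells under 10% (−1.21 under 20%). A mean of 5.17% of IEC-KO cells reached the 5th percentile of fl/fl and 0.205% the 25th. The median r over pairs, 0.142, was 0.184 in cells thinned to 5000 UMIs and 0.0268 within alpha-defensin UMIs.

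The 2686 genes called higher and 2660 lower became 9465 and 424 with library size only, 1776 and 1575 with DESeq2, 704 and 707 in thinned cells, and 2120 to 2523 and 2183 to 2471 when 1 library was left out. Library size only shifted the median of all genes to 0.70. The replicate numbers were not shown to pair the libraries (r = 0.027 between deviations of same-numbered libraries, 2 pairs). With the replicate number as a block, 2768 were higher and 2742 lower, and 12 and 11 of the list, where Hspa5 lost its call (adjusted p = 0.0646). The list had 26 higher and 7 lower with library size only, 7 higher in thinned cells, and 9 to 14 higher and 11 to 12 lower when 1 library was left out. Without either fl/fl library 9 were higher.

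Of 593 values for single list genes, 537 kept direction and call, 26 lost the call, 7 gained it and 23 changed sign. With library size only Reg3b had 0.67, Itln1 0.54, Spink4 0.62, P4hb 0.69, Pdia3 0.55, Agr2 0.60, Kcnn4 0.034, Vamp8 0.34, Bhlha15 0.27 and Fzd5 0.075. P4hb had 0.0041 with DESeq2, 0.0034 with no filter, 0.019 at a threshold of 40% and 0.023 with symbols as in the files. Reg3b had 0.012 at a threshold of 20%. In cells chosen by other Defa symbols Reg3b had 0.016, Spink4 0.013 and Agr2 0.0018. In thinned cells Atg16l1 had −0.028 and Tcf7l2 −0.13. Leaving out an IEC-KO library gave −0.086 to 0.041 for Reg3b, −0.0099 to 0.22 for Reg3g and −0.026 to 0.019 for P4hb. The cause was not tested.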

Other observations

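The trypsinogen UMIs (Try4 and Try5) seen in IEC-KO defensin-rich cells split those cells, a split chosen after seeing the data. After thinning, 249 and 240 IEC-KO cells had at least 1 such UMI, 2581 and 2882 had none, and no fl/fl cell had one. The members took 7.67% of UMIs in the cells with one and 8.14% in those without in replicate 1, and 7.38% and 7.42% in replicate 2. Gm14851 was at 1.95% against 1.51% and at 1.75% against 1.30%, and AY761184 at 1.48% against 2.00% and at 1.24% against 1.62%.

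Genes that differ along the small intestine were also looked at after seeing the data. In background cells Fabp6, the ileal bile acid binding protein, had 984 and 908 CPM (UMIs scaled to a common total) in fl/fl and 492 and 487 in IEC-KO. In defensin-rich cells the same gene had 255 and 209 against 159 and 218. Gata4, a factor of the proximal small intestine, had 7.59 and 10.5 in fl/fl background cells and 6.27 and 6.60 in IEC-KO. Onecut2, also proximal, had 34.8 and 37.8 against 24.5 and 26.0 in background cells, but 6.19 and 6.11 against 8.83 and 10.2 in defensin-rich cells, where the IEC-KO libraries were the higher. Gata4 had 2.63 and 2.47 against 2.89 and 2.87 in defensin-rich cells. The ileal transporter Slc10a2 had at most 36 UMIs in any library and cell set. The part of intestinal region in the members' levels was not tested.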
